A study of Mus musculus with 20 samples.

Results

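Genes for proteoglycans and fibroblast matrix proteins were followed in the mouse prostate through castration and testosterone replacement. The 9 genes were Lum, Dcn, Bgn, Vcan, Gpc3, Fn1, Sparc, Sparcl1 and Thy1, taken by symbol from the 8251 genes that had a single symbol on the array. They were represented by 10 probe sets, of which Bgn had 2, and all 10 passed the filter on low values, Vcan largely through its testosterone arrays. Whole prostates of C57/B6 mice, 10 to 12 weeks old, were measured on 20 Affymetrix MG-U74A arrays in 4 groups of 5. A sham-treated group was set beside prostates taken 3 or 14 days after castration. The last group, here the testosterone group, had been castrated for 14 days when a 15 mg testosterone pellet was implanted, and its prostates were taken 3 days later. No castrated group was taken at that later time or given a pellet without testosterone. Where testosterone is said to raise or lower a gene, the difference from the 14-day group is meant. In it testosterone, the implant and 3 more days cannot be told apart. Prostates were collected whole, so lobes were not told apart, and 5 mice were used for each group. The sham group carried the code N3, and its time after surgery was not stated. The comparisons ask how transcripts change as the gland regresses without androgen and how they change when androgen returns.

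Proteoglycans are proteins that carry long sulfated sugar chains and fill the space between cells and collagen fibres. Lumican (Lum), decorin (Dcn) and biglycan (Bgn) are small leucine-rich proteoglycans that bind collagen fibrils, and decorin and biglycan also bind transforming growth factor beta. Versican (Vcan) is a large proteoglycan that binds hyaluronan, and glypican 3 (Gpc3) is held to the cell surface by a lipid anchor. Fibronectin (Fn1) links cells to the matrix through integrins. SPARC (Sparc) and its relative hevin (Sparcl1) are secreted collagen-binding proteins, and THY1 (Thy1) is a surface glycoprotein of fibroblasts that mouse T cells and neurons also carry. In the prostate these products come largely from the stroma that surrounds the secretory glands.

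The deposited values are linear intensities, 1 for each probe set, here called the signal, and array medians ran from 154 to 224. Of 12422 probe sets that were not controls, 6913 were tested with limma on log2 of the signal plus 12.7. Folds and log2 changes are on that scale, with the standard error (SE) of the model. Adjusted p is the Benjamini-Hochberg value over the 6913 probe sets of a comparison, and a gene was called at an adjusted p under 0.05. The 3′ to 5′ log2 ratio of the Gapdh control probe sets, a sign of RNA quality, was 1.82 to 4.50 on 4 arrays and -0.53 to -0.08 on the other 16. Replicates 4 and 5 at 14 days of castration and replicates 2 and 5 with testosterone made up the 4. In whole tissue, fewer cells of a type and less RNA per cell cannot be told apart.

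Promoter sequence was held for 4 of the 9 genes in the RefSeq table (GRCm38.p6), and the 250 bases before the start of 3 are shown as examples of genes called higher (Sparc, Bgn) and lower (Gpc3) with testosterone than at 14 days of castration. The window of Vcan is not printed because it lies inside the gene itself. Capitals mark AGAACA or its reverse complement TGTTCT, the half-site bound by the androgen receptor. The strand is given in brackets and each sequence runs 5′ to 3′.
Sparc, chr11:55420081-55420330 (minus strand): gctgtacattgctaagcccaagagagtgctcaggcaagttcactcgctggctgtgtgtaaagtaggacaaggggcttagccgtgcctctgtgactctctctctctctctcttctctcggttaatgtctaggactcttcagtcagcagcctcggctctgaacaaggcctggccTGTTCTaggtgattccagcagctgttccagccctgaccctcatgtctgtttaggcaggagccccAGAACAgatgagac
Bgn, chrX:73483351-73483600 (plus strand): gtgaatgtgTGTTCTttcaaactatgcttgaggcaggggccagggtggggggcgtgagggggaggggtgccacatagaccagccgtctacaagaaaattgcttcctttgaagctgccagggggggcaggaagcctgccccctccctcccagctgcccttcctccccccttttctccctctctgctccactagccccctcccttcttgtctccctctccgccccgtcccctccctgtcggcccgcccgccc
Gpc3, chrX:52613975-52614224 (minus strand): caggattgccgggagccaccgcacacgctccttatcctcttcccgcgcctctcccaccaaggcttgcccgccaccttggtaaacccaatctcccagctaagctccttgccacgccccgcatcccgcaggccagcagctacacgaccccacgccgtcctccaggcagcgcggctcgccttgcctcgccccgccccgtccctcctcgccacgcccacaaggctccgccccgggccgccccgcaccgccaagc
The Sparc window held 2 half-sites, starting 78 and 14 bases before the transcript start, and the Bgn window held 1, starting 241 bases before it. Gpc3 held 0 in these letters, as did the window of Vcan. Among all 32851 windows of the same length in the table, 16.1% held at least 1 half-site. None of the 4 windows held TATAAA or its reverse complement TTTATA, which 12.4% of all windows held. Such a match describes the letters only.

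Lum showed the most regular course of the small leucine-rich proteoglycans. Its signal was 437, 781, 907, 572 and 879 in sham prostates. It was 1905, 2256, 1807, 1655 and 2081 after 3 days of castration. After 14 days it was 3903, 3604, 3310, 4066 and 4062, and in the testosterone group 1411, 1797, 1302, 1123 and 1398. The lowest array at 14 days lay above the highest at 3 days, and the lowest at 3 days above the highest of sham, while the testosterone arrays lay between 14 days and sham. Lum rose 2.76-fold at 3 days over sham (log2 change 1.47 ± 0.17 (SE), adjusted p = 1.08e-05) and 5.39-fold at 14 days (2.43 ± 0.17, adjusted p = 1.07e-09). Testosterone lowered it 2.70-fold relative to 14 days of castration (-1.43 ± 0.17, adjusted p = 1.22e-06). It was still called higher than in sham (adjusted p = 7.28e-05), with group means of 1406 ± 247 with testosterone and 715 ± 204 in sham (SD, n = 5 each). Each of these calls, and that of 14 days against 3 days, was made again without the 4 arrays of high Gapdh ratio. None of the 4 was a sham or 3-day array. For 3 days against sham only the estimate of spread and the adjustment could therefore change.

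Dcn, next to Lum on chromosome 10, followed a flatter course. Its signal was 7335, 8939, 10191, 9447 and 9960 in sham prostates and 11055, 10403, 10105, 11086 and 11169 at 3 days. It was 11895, 14643, 9950, 14252 and 15564 at 14 days, and 7943, 7900, 7234, 7716 and 6223 in the testosterone group. Testosterone and 14-day arrays did not overlap, while replicate 3 of the 14-day group lay within the sham range. Dcn rose 1.44-fold at 14 days over sham (log2 change 0.52 ± 0.12 (SE), adjusted p = 0.00107). The 3-day difference from sham was 0.24 ± 0.12 and was not called (adjusted p = 0.196). Testosterone lowered Dcn 1.77-fold relative to 14 days (-0.83 ± 0.12, adjusted p = 1.30e-05) and it was also called lower than in sham (-0.31 ± 0.12, adjusted p = 0.0361). The last call ended in 11 of 32 alternative settings, among them centring of each array on its median (-0.14, adjusted p = 0.433) and leaving out the 4 arrays of high Gapdh ratio (adjusted p = 0.101).

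Bgn had its highest signals early. On the probe set with the higher mean it was 2470, 2397, 2262, 2032 and 2254 in sham prostates and 3233, 3096, 2952, 3957 and 4564 at 3 days. It was 2337, 2432, 3064, 1817 and 1873 at 14 days, and 3493, 2318, 3183, 3168 and 2661 in the testosterone group. Every 3-day array exceeded every sham array, and the 14-day arrays lay on both sides of sham. Bgn rose 1.54-fold at 3 days over sham (log2 change 0.62 ± 0.15 (SE), adjusted p = 0.00805) and fell 1.55-fold at 14 days relative to 3 days (-0.63 ± 0.15, adjusted p = 0.00261). At 14 days against sham the difference was -0.01 ± 0.15 (adjusted p = 0.959). The second probe set also rose at 3 days (0.73 ± 0.15, adjusted p = 0.00326), but at 14 days it was called above sham (0.49 ± 0.15, adjusted p = 0.0123), so the probe sets differ for the late gland. On the second probe set neither the difference of 14 days from 3 days (-0.25, adjusted p = 0.208) nor that of testosterone from 14 days (0.09, adjusted p = 0.656) was called. The arrays with the lowest Bgn at 14 days and with testosterone were those of high Gapdh ratio, with 1817 and 1873 at 14 days and 2318 and 2661 with testosterone. Testosterone raised Bgn relative to 14 days (0.37 ± 0.15, adjusted p = 0.0482), a call that ended in 20 of 32 settings, 15 of which left out 1 array.

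**Figure D1:**
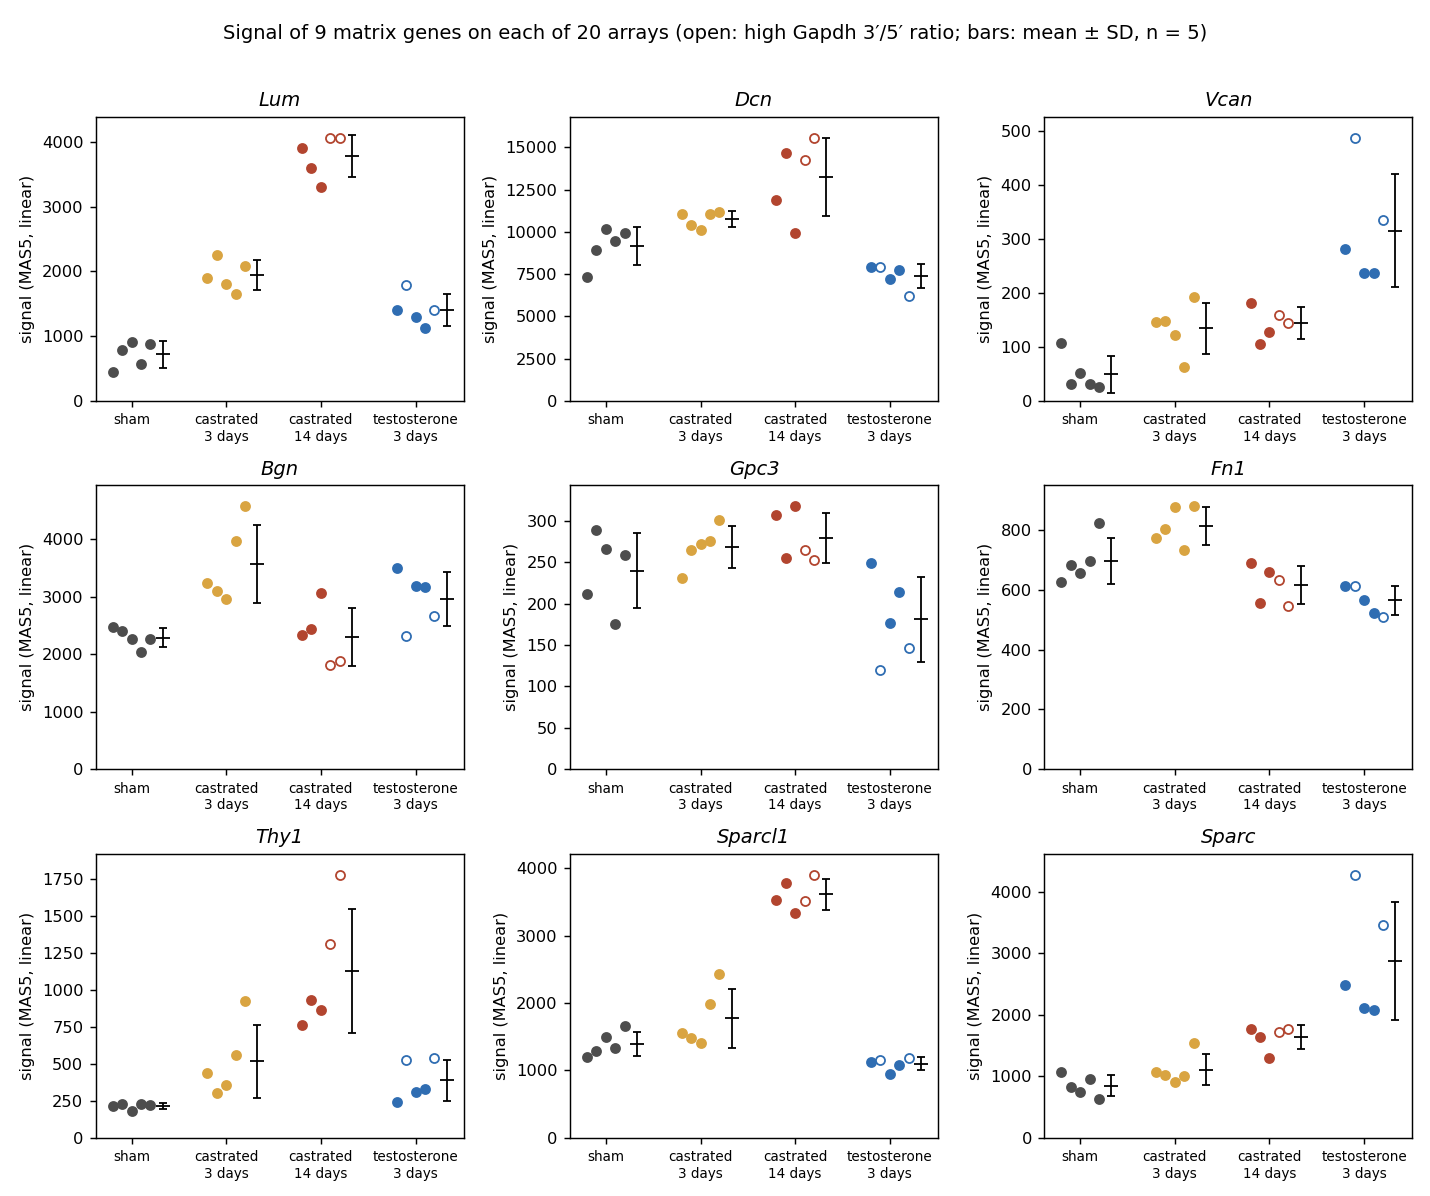
Signal (MAS5, linear, from 0) of the 9 genes on each of 20 arrays, with groups in the order of the experiment, points for arrays, open points for the 4 arrays of high Gapdh 3′ to 5′ ratio, and bars for mean ± SD (n = 5). Lum, Dcn, Thy1 and Sparcl1 are highest at 14 days of castration, Bgn and Fn1 at 3 days, and Vcan and Sparc in the testosterone group.

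The small leucine-rich members did not change by equal amounts. The log2 difference of Lum and Dcn on the same array was tested between groups with exact two-sided permutation tests, in which 5 against 5 arrays give a smallest p of 0.00794. Over the 4 family pairs and 5 comparisons 20 such tests were made, and adjusted p here is over those 20. Relative to Dcn, Lum rose by 1.23 ± 0.16 (SE) on the log2 scale at 3 days over sham and by 1.91 ± 0.16 at 14 days (exact permutation adjusted p = 0.0132 for each). With testosterone it fell relative to Dcn by 0.61 ± 0.15 against 14 days (exact permutation adjusted p = 0.0132). The difference of Dcn and Bgn was 0.91 ± 0.26 higher at 14 days than at 3 days (exact permutation adjusted p = 0.0423). With the 4 arrays of high Gapdh ratio left out it was 0.595 and was not called (exact permutation adjusted p = 0.119). The same difference changed by -1.20 ± 0.27 with testosterone relative to 14 days (exact permutation adjusted p = 0.0227). Without those 4 arrays it was -0.99, where 3 against 3 arrays cannot pass. Bgn here is the probe set with the higher mean. On its second probe set the changes of Bgn itself in these comparisons were not called. At 14 days against sham Dcn and Bgn were not shown to differ in their change (0.53 ± 0.27, exact permutation adjusted p = 0.115).

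Of 11 other small leucine-rich proteoglycan genes listed, 6 were on the array and 3 were tested. At 14 days against sham 2 of these 3 rose and 0 fell, where 52.9% of all 6913 probe sets were called (28.6% higher, 24.3% lower). Ogn, osteoglycin, averaged 770 at 14 days and 304 in sham prostates (log2 change 1.30), and Fmod, the collagen-binding fibromodulin, 743 and 480 (0.77). Testosterone lowered Fmod by 0.73 relative to 14 days, back to 458. Ogn measured 715 in the testosterone group and was not called against 14 days (-0.10), and was called above sham (1.20). At 3 days against sham 0 of the 3 were called.

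Vcan had its highest signal with testosterone. Its signal was 107, 30.1, 51.8, 30.3 and 25.5 in sham prostates and 146, 148, 121, 62.1 and 192 at 3 days. At 14 days it was 182, 105, 127, 159 and 144, and in the testosterone group 280, 487, 237, 237 and 334. All testosterone arrays lay above all others, and castrated and sham arrays overlapped. Vcan was above the filter level of 190.8 on 6 arrays, 5 of them in the testosterone group, so it was tested largely because it was high there. Its tests are therefore given from the limma fit with no filter on low values. In that fit it rose at 3 days (log2 change 1.32, adjusted p = 0.0102) and 14 days (1.46, adjusted p = 0.000780) over sham. It rose with testosterone relative to 14 days (1.04, adjusted p = 0.0132) and sham (2.50, adjusted p = 4.31e-06). With pseudocounts of 1 and 43.2 in place of 12.7 the 14-day change over sham was 1.72 and 1.07. The highest Vcan signals with testosterone, 487 and 334, were on replicates 2 and 5, the arrays of high Gapdh ratio. Without the 4 such arrays, in the filtered fit, the change over 14 days was 0.84 and was not called (adjusted p = 0.0952), and that over sham was 2.24, while the 3 testosterone arrays that remained still lay above every 14-day array.

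Gpc3, a heparan sulfate proteoglycan that modulates hedgehog and Wnt signals, had its lowest signals with testosterone. Its signal was 212, 288, 265, 175 and 259 in sham prostates and 230, 265, 272, 276 and 301 at 3 days. At 14 days it was 307, 255, 317, 265 and 252.3, and in the testosterone group 249, 120, 177, 214 and 146. Testosterone arrays lay below all 14-day arrays. Gpc3 fell 1.54-fold relative to 14 days (log2 change -0.63 ± 0.16 (SE), adjusted p = 0.00334). Leaving out the 4 arrays of high Gapdh ratio gave -0.44 (adjusted p = 0.0460). The lowest signals, 120 and 146, were on the 2 testosterone arrays of high Gapdh ratio. Its call against sham (-0.40, adjusted p = 0.0399) ended without the 4 arrays (-0.15, adjusted p = 0.424). At 3 and 14 days against sham the differences were 0.17 ± 0.16 and 0.22 ± 0.16 and were not called. With the Gapdh ratio as a covariate the 14-day difference from sham was called (0.34, adjusted p = 0.0278), and that of testosterone from sham was not (-0.17, adjusted p = 0.333).

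Other large and cell-surface proteoglycans numbered 24, of which 17 were on the array and 9 were tested. At 14 days against sham 4 rose and 1 fell, a share near the 52.9% called in either direction over all probe sets. Sdc1 (log2 change 1.07), Gpc4 (0.76) and Sdc2 (0.62) were higher, the syndecans Sdc1 and Sdc2 being membrane-spanning and glypican Gpc4 lipid-anchored. Hspg2, the basement membrane proteoglycan perlecan, averaged 257 at 14 days and 557 in sham prostates (-1.16). With testosterone against 14 days 1 rose and 3 fell, also near the 44.8% called in either direction over all probe sets. Gpc1 averaged 668 with testosterone and 371 at 14 days (0.82), while Sdc4 (-0.96), Sdc2 (-0.82) and Spock2, a testican (-0.71), fell. Gpc1 thus moved against Gpc3 in that comparison, each by its own test.

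The enzymes that build the sugar chains showed no shared direction. Of 41 genes listed 12 were tested, and at 14 days against sham 3 rose and 3 fell, near the 52.9% over all probe sets. Ugdh, which makes the UDP-glucuronate used in these chains, averaged 1647 at 14 days and 871 in sham prostates (log2 change 0.92). Papss1 and Papss2 both make the sulfate donor, yet Papss1 rose (0.91) and Papss2 averaged 221 at 14 days and 1543 in sham prostates (-2.58). Papss2 rose with testosterone to 785, against 221 at 14 days (1.79). Ext1, a heparan sulfate polymerase subunit, rose at 14 days over sham (0.63) and fell with testosterone against 14 days (-0.66).

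Sparc and Sparcl1 were both higher at 14 days of castration than in sham, and testosterone moved them in opposite directions. Sparc measured 1063, 826, 752, 959 and 624 in sham prostates and 1074, 1015, 913, 999 and 1546 at 3 days. It measured 1771, 1645, 1303, 1720 and 1767 at 14 days, and 2480, 4277, 2103, 2077 and 3469 in the testosterone group. All testosterone arrays lay above all 14-day arrays, and all 14-day arrays above all sham arrays. Sparc rose 1.95-fold at 14 days over sham (log2 change 0.96 ± 0.19 (SE), adjusted p = 0.000380) and 1.69-fold with testosterone relative to 14 days (0.76 ± 0.19, adjusted p = 0.00363). It was 3.29-fold above sham with testosterone (1.72 ± 0.19, adjusted p = 9.15e-07). The 2 highest values, 4277 and 3469, were those of replicates 2 and 5 of high Gapdh ratio. Without the 4 arrays the rise over 14 days was 0.50 (adjusted p = 0.0592) and the rise over sham 1.40 (adjusted p = 2.31e-05), and the means were 2220 ± 225 (SD, n = 3) with testosterone and 1573 ± 242 (SD, n = 3) at 14 days.

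Sparcl1 measured 1196, 1291, 1494, 1326 and 1653 in sham prostates and 1554, 1476, 1406, 1982 and 2432 at 3 days. Its signal was 3526, 3777, 3329, 3520 and 3899 at 14 days, and 1131, 1159, 939, 1080 and 1184 in the testosterone group. The 14-day arrays stood above all others and the testosterone arrays below all others. Sparcl1 rose 2.59-fold at 14 days over sham (log2 change 1.37 ± 0.13 (SE), adjusted p = 6.66e-08), and its 3-day difference of 0.32 ± 0.13 was not called (adjusted p = 0.111). Testosterone lowered it 3.27-fold relative to 14 days (-1.71 ± 0.13, adjusted p = 5.18e-09). Against sham its level was called lower with testosterone (-0.33 ± 0.13, adjusted p = 0.0383), and this call ended without the 4 arrays of high Gapdh ratio (-0.40, adjusted p = 0.0529) and with arrays centred on their medians (-0.17, adjusted p = 0.343).

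The log2 difference of Sparc and Sparcl1 was 1.32 ± 0.38 (SD, n = 5) with testosterone and -1.14 ± 0.14 (SD, n = 5) at 14 days. This change of 2.46 ± 0.18 (SE) was at the smallest p the exact permutation test allows (p = 0.00794, adjusted p = 0.0132). All 5 testosterone arrays lay above all 5 arrays of 14 days, and the change was 2.25 with the 4 arrays of high Gapdh ratio left out, where 3 arrays a group leave the exact permutation test unable to pass (adjusted p = 0.125). Between 3 and 14 days of castration Sparcl1 had already gained on Sparc, with a change in the difference of -0.48 ± 0.10 (exact permutation adjusted p = 0.0132). Against sham the change was not called at 3 days (0.07 ± 0.23, exact permutation adjusted p = 0.849) or at 14 days (-0.41 ± 0.22, exact permutation adjusted p = 0.117). Without sham replicate 5 the 14-day change was called (-0.58, exact permutation adjusted p = 0.0122).

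**Figure D2:**
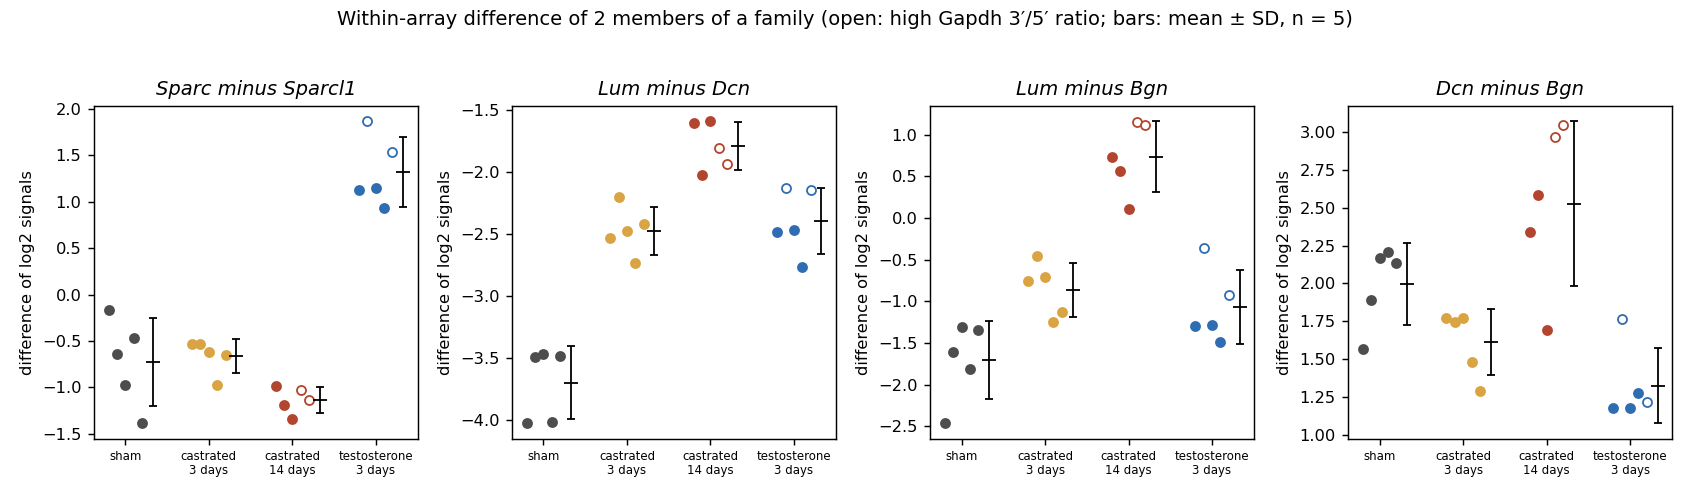
Within-array difference of log2 signals (y axis, not from 0) of 4 pairs of related genes in the 4 groups, with points for arrays, open points for the 4 arrays of high Gapdh 3′ to 5′ ratio, and bars for mean ± SD (n = 5). The difference of Sparc and Sparcl1 averages 1.32 with testosterone and -1.14 at 14 days of castration, and that of Lum and Dcn averages -1.79 at 14 days and -3.70 in sham.

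Fn1 had its highest mean signal at 3 days. Its signal was 625, 684, 655, 695 and 823 in sham prostates and 772, 803, 877, 732 and 878 at 3 days. At 14 days it was 690, 555, 657, 632 and 545, and in the testosterone group 613, 613, 567, 522 and 510. The 14-day arrays lay below all 3-day arrays, and the testosterone arrays below all sham arrays. Fn1 fell 1.31-fold at 14 days relative to 3 days (log2 change -0.39 ± 0.09 (SE), adjusted p = 0.00291). The differences from sham were 0.22 ± 0.09 at 3 days (adjusted p = 0.131) and -0.17 ± 0.09 at 14 days (adjusted p = 0.131), neither called. With quantile normalization the 14-day difference was called (-0.24, adjusted p = 0.0306). Testosterone and 14 days were not shown to differ (-0.12 ± 0.09, adjusted p = 0.318), and the call of lower Fn1 with testosterone than in sham (-0.29, adjusted p = 0.0144) ended with arrays centred on their medians (-0.13, adjusted p = 0.310).

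Thy1 followed Lum in direction. It measured 212, 228, 184, 226 and 220 in sham prostates and 440, 303, 357, 558 and 926 at 3 days. It measured 763, 932, 862, 1312 and 1779 at 14 days, and 239, 528, 307, 329 and 539 in the testosterone group. Sham arrays lay below all others, the spread widened after castration, and 3-day and 14-day arrays overlapped only through replicate 5 at 3 days. Thy1 rose 2.17-fold at 3 days (log2 change 1.12 ± 0.28 (SE), adjusted p = 0.0101) and 4.81-fold at 14 days (2.27 ± 0.28, adjusted p = 1.59e-06) over sham. Testosterone lowered it 2.84-fold relative to 14 days (-1.51 ± 0.28, adjusted p = 0.000190). The 2 highest arrays both at 14 days and with testosterone were those of high Gapdh ratio, and without the 4 such arrays the 14-day rise was 1.93 (adjusted p = 1.54e-05) and the fall with testosterone -1.51 (adjusted p = 0.000577). The remaining excess over sham with testosterone (0.76, adjusted p = 0.0271) became 0.42 without them (adjusted p = 0.188).

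Markers of the other cells that carry Thy1 were set beside it. Of the 5 T-cell markers on the array, only Cd4 passed the filter, and it was not called in any of the 5 comparisons. The summed signal of the 5 was 220 to 398 at 14 days and 229 to 513 in sham prostates. No marker was at 0 on all arrays of a group, but all 5 were under 190.8 on every 14-day array. Nerve markers moved with Thy1 in part. Snap25, Prph and Uchl1, the 3 tested of 6 on the array, all rose at 14 days over sham (log2 changes 3.04, 2.55 and 1.91). All fell with testosterone against 14 days (-2.89, -2.50 and -1.28). Against sham 0 of the 3 were called at 3 days or with testosterone, where Thy1 was called higher. Over all probe sets 28.6% were called higher at 14 days over sham and 26.6% lower with testosterone against 14 days. In either direction 14.3% were called at 3 days against sham and 53% with testosterone against sham. Of the 6 markers 5 were under 190.8 on every sham and every testosterone array. Snap25 (340 at 14 days, 41 in sham) and Prph (452 and 76) were thus tested largely because they were high at 14 days. The summed signal of the 6 was 1688 to 2112 at 14 days and 313 to 804 in sham prostates, and 311 to 838 with testosterone. The part of nerve cells in the Thy1 result was not tested.

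Vcan was left out of the counts because of how it passed the filter, and the other 8 genes were counted by the probe set with the highest mean. At 3 days against sham 3 rose and 0 fell (Lum, Thy1 and Bgn), where 14.3% of all 6913 probe sets were called (9.84% higher, 4.46% lower). At 14 days against sham 5 rose and 0 fell, beside 52.9% called over all probe sets (28.6% higher, 24.3% lower). From 3 to 14 days 4 rose and 2 fell, beside 40.5% (20.2% higher, 20.4% lower). With testosterone against 14 days 2 rose and 5 fell, beside 44.8% (18.2% higher, 26.6% lower), and against sham 4 rose and 4 fell, beside 53% (23.5% higher, 29.5% lower). The median log2 change of the 8 was 0.35 at 3 days, 0.74 at 14 days and -0.73 with testosterone against 14 days, while the median over all probe sets tested was 0.04, 0.01 and -0.10. Groups did not overlap for 6 of the 8 with testosterone against 14 days (30.7% of all probe sets), for 5 of the 8 with testosterone against sham (31.4%) and for 4 of the 8 at 14 days against sham (35%). The comparisons share the sham or the 14-day arrays, so they are not independent. Leaving out the 4 arrays of high Gapdh ratio gave 3 higher and 0 lower at 3 days, 5 and 0 at 14 days, 4 and 2 from 3 to 14 days, 0 and 5 with testosterone against 14 days, and 3 and 1 against sham. None of the 4 was a sham or 3-day array, so the log2 changes at 3 days against sham could not move. The share of all probe sets called without those arrays was not computed. The 5 calls of a fall with testosterone against 14 days, for Lum, Dcn, Gpc3, Thy1 and Sparcl1, remained. The rises of Sparc (0.50, adjusted p = 0.0592) and Bgn (0.34, adjusted p = 0.0913) were not called without those arrays. With the Gapdh ratio as a covariate on all 20 arrays both were called (Sparc 0.62, adjusted p = 0.00337, and Bgn 0.48, adjusted p = 0.00206). For Vcan that setting was run only in the filtered fit, which it entered largely through its testosterone arrays, and the change was 0.92.

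**Figure D3:**
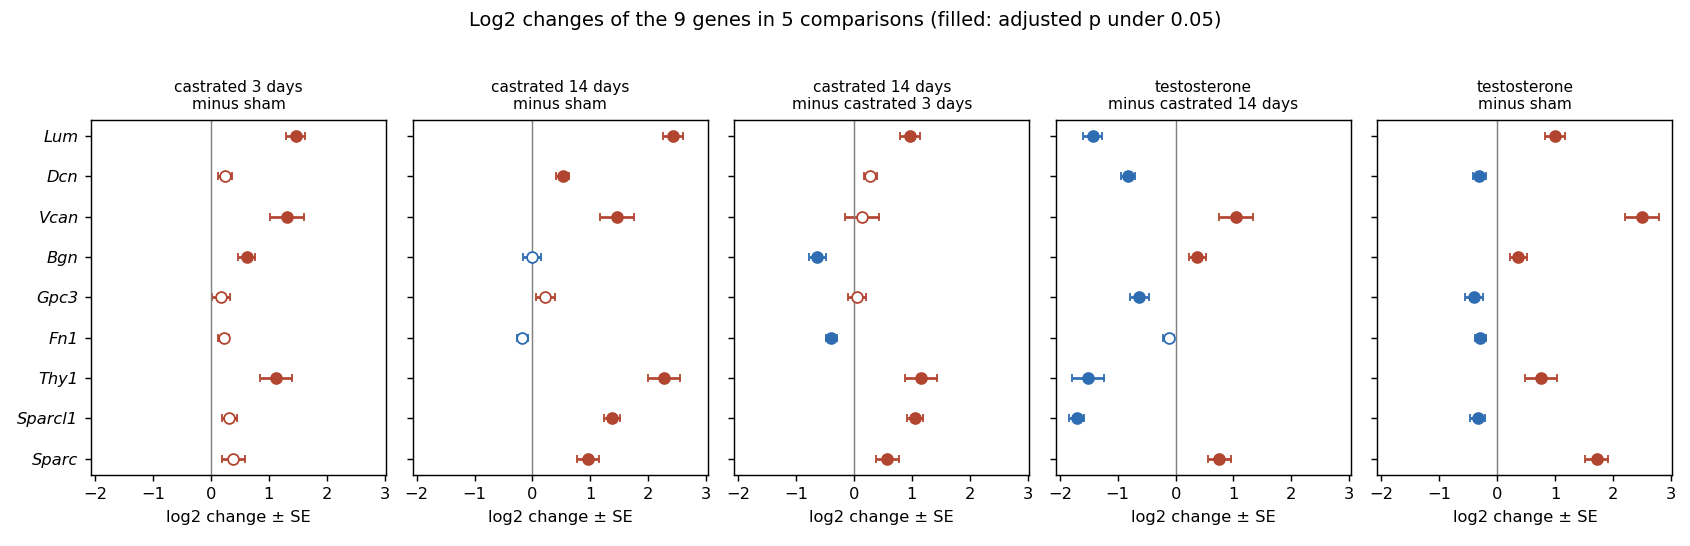
Log2 change ± SE (limma) of the 9 genes in the 5 comparisons, filled where the adjusted p is under 0.05, red above 0 and blue below, with Vcan as in the filtered fit. At 14 days against sham Lum (2.43) and Thy1 (2.27) stand farthest to the right, and with testosterone against 14 days Sparcl1 (-1.71), Thy1 (-1.51) and Lum (-1.43) lie to the left while Vcan (1.04) and Sparc (0.76) lie to the right.

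Of 35 fibronectin-binding integrin and matricellular genes 12 were tested, and 6 rose and 0 fell at 3 days, 7 rose and 0 fell at 14 days over sham, and 0 rose and 6 fell with testosterone against 14 days. Over all probe sets 14.3%, 52.9% and 44.8% were called in either direction in these comparisons. Only in either direction were the shares called at 14 days and with testosterone near the background. By direction, 28.6% of all probe sets were called higher and 24.3% lower at 14 days over sham. With testosterone against 14 days 18.2% were called higher and 26.6% lower. The calls of the list were all higher at 14 days and all lower with testosterone, which was not tested against those shares. The median log2 changes of the list in these comparisons were 0.50, 0.83 and -0.33. Matn2, a filament-forming matrilin, averaged 1605 at 14 days and 572 in sham prostates (1.46). Tnxb, tenascin X, averaged 285 with testosterone and 726 at 14 days (-1.32). Postn, periostin, rose at 3 days (1.03) and 14 days (1.04) and was not called with testosterone against 14 days (0.40), measuring 1071 with testosterone. The integrin subunits Itgav and Itgb1, which bind fibronectin, were not called in any comparison.

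Elastic fibre genes numbered 17 listed and 7 tested, of which 5 rose and 1 fell at 14 days over sham, and 1 rose and 3 fell with testosterone against 14 days, beside 52.9% and 44.8% called over all probe sets. Fbln1, fibulin 1, which binds fibronectin and versican, averaged 2091 at 14 days and 931 in sham prostates (log2 change 1.09) and fell with testosterone to 799 (-1.42). Eln, elastin, rose with testosterone to 1367, against 461 at 14 days. Of 20 proteases and inhibitors that act on proteoglycans 7 were tested, and 5 rose and 1 fell at 14 days over sham, beside the same 52.9%. Timp3, an inhibitor that binds sulfated sugar chains, rose 1.22 at 14 days and fell by 0.86 with testosterone, whereas Timp1 rose 1.14 at 14 days and was not called with testosterone against 14 days (0.12).

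Genes of transforming growth factor beta signalling, to which decorin and biglycan bind, were tested for 8 of 13 listed. At 14 days over sham 3 rose and 2 fell, and with testosterone against 14 days 1 rose and 4 fell, beside 52.9% and 44.8% over all probe sets. Tgfbi, a matrix protein that this factor induces, averaged 504 at 14 days and 145 in sham prostates (log2 change 1.71) and 208 with testosterone (-1.24 against 14 days). Tgfb2 (-0.72) and Tgfb3 (-0.48) fell with testosterone against 14 days, and the inhibitory Smad7 did so as well (-0.56). The ligand gene Tgfb1 and the receptors Tgfbr1 and Tgfbr2 did not pass the filter.

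**Figure D4:**
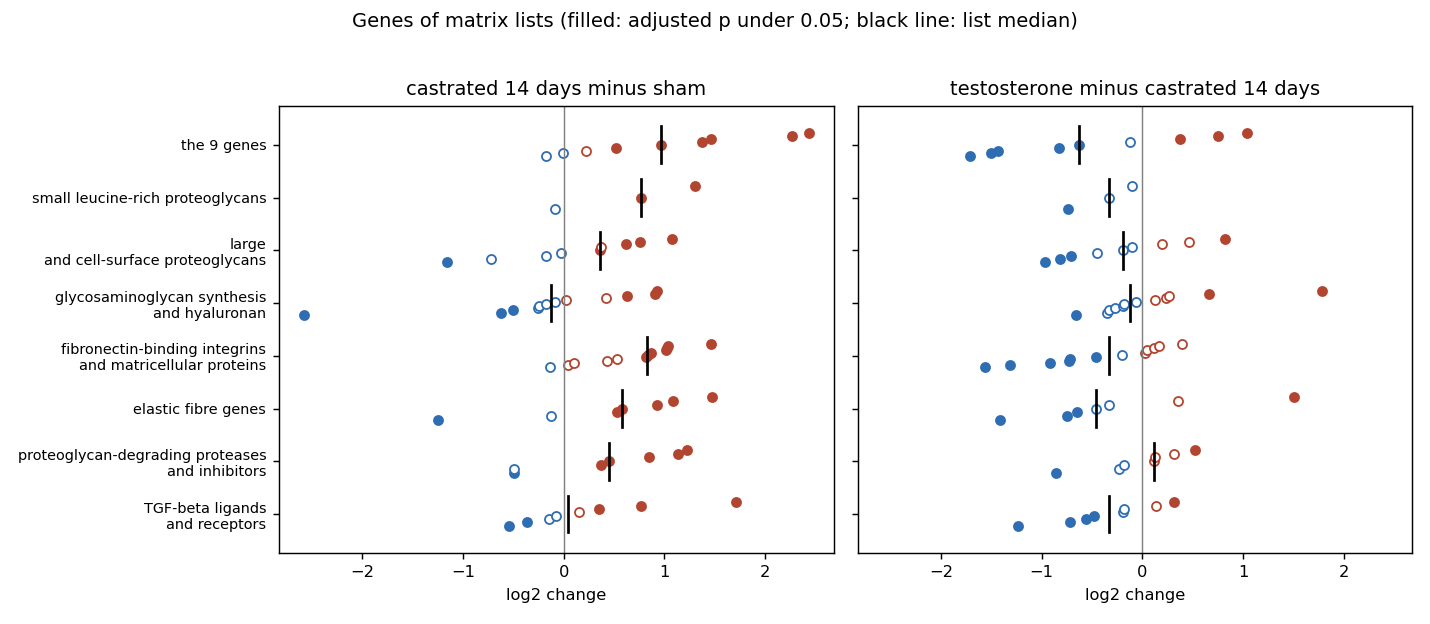
Log2 changes of the tested genes of 8 lists (rows), at 14 days of castration against sham (left) and with testosterone against 14 days (right), with filled points for an adjusted p under 0.05, red above 0, blue below, and a black line at the list median. The medians of the 9 genes, Vcan included, are 0.96 and -0.63, those of the fibronectin-binding and matricellular genes 0.83 and -0.33, and those of the sugar-chain synthesis genes -0.13 and -0.12.

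Markers of stromal and other cells moved in several of these comparisons, and their part in the results on the 9 genes was not tested. Over all probe sets 52.9% were called at 14 days against sham (28.6% higher, 24.3% lower). With testosterone against 14 days 44.8% were called (18.2% higher, 26.6% lower). The marker lists are short, and their counts are given beside those shares without a test. Of 7 fibroblast markers 5 were tested, and 3 rose and 0 fell at 14 days over sham. This was near the 52.9% called in either direction over all probe sets, of which 28.6% were called higher. The summed signal of the 7 was 5327 to 6340 at 14 days and 3089 to 5234 in sham prostates, and 7052 to 10728 with testosterone. Tcf21, a transcription factor of fibroblasts, ran like Lum, averaging 1682 at 14 days and 247 in sham prostates (log2 change 2.73), and 633 with testosterone (-1.40 against 14 days). Col1a1, the main fibrillar collagen chain, averaged 3549 with testosterone and 767 at 14 days (2.17). Pdgfra, a receptor for platelet-derived growth factor, was not called in any comparison. Smooth muscle markers fell in 4 of 6 at 14 days against sham and rose in 5 of 6 with testosterone against 14 days. Their summed signal was 16123 to 21140 at 14 days and 25684 to 31237 in sham prostates, and 36808 to 39858 with testosterone. Macrophage markers rose in 4 of 4 tested at 14 days over sham, with sums of 3170 to 4225 at 14 days and 929 to 1234 in sham prostates. With testosterone against 14 days 4 of 4 fell, with sums of 1665 to 2103. Aif1 among them averaged 358 at 14 days and 37 in sham prostates, and was tested largely because it was high at 14 days. Endothelial markers, relevant to Sparc and Sparcl1 because blood vessels make both, rose in 3 of 4 tested at 14 days over sham and fell in 3 of 4 with testosterone. Their sums were 1670 to 2105 at 14 days and 560 to 964 in sham prostates, and 793 to 1085 with testosterone. Cldn5 among them averaged 419 at 14 days and 101 in sham prostates, and likewise passed the filter largely through the 14-day arrays. Adipocyte markers rose in 2 of 3 at 14 days over sham, with sums of 2149 to 3417 at 14 days and 547 to 1220 in sham prostates. With testosterone against 14 days 3 of 3 fell, with sums of 632 to 999. Of the 5 luminal epithelial markers 2 rose and 1 fell at 14 days over sham. Their sums were 19555 to 27526 at 14 days and 23450 to 31973 in sham prostates. Pbsn, the 1 that fell, averaged 4903 at 14 days and 16904 in sham prostates, so it weighs heavily in the sums. Krt8 (log2 change 0.96) and Epcam (0.71) were the 2 that rose. Of 5 skeletal muscle markers 0 were called at 14 days against sham, and their sums varied widely, from 1418 to 19716 at 14 days and from 2023 to 12625 in sham prostates.

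For each of the 9 genes the 3 genes most like it were named by Pearson's correlation of log2 signals over the 20 arrays, among 5362 other genes. The arrays share the 4 groups and their scaling, so the coefficient describes a shared course over the groups. Lum was most like Ctsh, a lysosomal cysteine protease (r = 0.97), Csf1r, the receptor of a macrophage growth factor (0.97), and Gstt1, a glutathione transferase (0.96). Sparcl1 was most like F3, tissue factor (0.95), Igfbp3, which binds insulin-like growth factors (0.95), and Ahnak (0.95). Thy1 was most like Rtn4, a membrane protein of the endoplasmic reticulum (0.96), Rasa3 (0.94) and Phldb2 (0.94). Dcn was most like Zfp36l1, an RNA-binding protein (0.95), Caprin2 (0.93) and Ptch1, the hedgehog receptor (0.92).

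Vcan was most like Tsc22d1 (0.93) and the collagen genes Col3a1 (0.91) and Col1a2 (0.91), which averaged 3771 and 3014 with testosterone and 1391 and 1290 at 14 days. Sparc was most like Atp6ap2 (0.95), Eef1akmt1 (0.94) and Eif1ax, a translation initiation factor (0.94). Bgn had weaker likenesses, led by Col6a2, a collagen VI chain (0.81). Gpc3 was most like Dkk3 (0.91), a secreted protein of the Dickkopf family, and Fn1 most like Tcea2 (0.88), a transcription elongation factor. Among the 9 themselves the closest pairs over the 20 arrays were Vcan and Sparc (r = 0.89), Lum and Thy1 (0.87) and Dcn and Sparcl1 (0.86). After each group's mean was removed the same coefficients were 0.66, 0.14 and 0.43. Vcan and Sparc thus also varied together between arrays of a group, where the arrays of high Gapdh ratio were the highest for both with testosterone. This was not particular to that pair. Thy1 and Sparcl1 (0.65), Bgn and Gpc3 (0.64) and Thy1 and Sparc (0.63) were about as close, and Gpc3 and Sparc ran opposite (-0.58).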

How the data were processed

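Total RNA of whole prostates was labelled with biotin and hybridised to MG-U74A arrays, 1 array a sample, per the labels. The deposited values are intensities computed with MAS5 version 5.0 per the submitters' processing notes. They are linear and not log transformed. The mean of each array without its lowest and highest 2% of values was 500.2 to 500.3, so each array appeared scaled before deposit. Scanning settings are not given in the sources used here.

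Symbols came from GEO's platform annotation (10833 probe sets with 1 symbol, 396 with several, 1193 with none), and all 9 members matched RefSeq. The 66 control probe sets were left out. Values were analysed as log2(signal + 12.7), the 10th percentile, where signals exceeded 190.8, the median, on at least 5 arrays (6913 of 12422 probe sets, 5372 genes). All 20 arrays entered 1 limma 3.58.1 fit (R 4.3.3, eBayes, two-sided). Each gene was represented by its brightest probe set on average over the arrays. Differences of family pairs used exact permutation tests. Vcan was tested without the filter and left out of the member counts, a choice made after its values were seen.

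The members, lists and the setting without the arrays of high Gapdh ratio were chosen with earlier results of these data known. Named genes were the members, up to 4 called genes with the largest change per list and comparison, and the 3 genes most like each member. Genes named as not called, or outside those 4, were chosen after their values were seen. The labels do not say which array came from which mouse or whether arrays were processed together, so p-values measure the spread between these arrays, and any such batch cannot be told apart from the groups. In simulated data for castration for 14 days against sham, 94% of probe sets changed by 1 on the log2 scale were called among 6913, and 60% of those changed by 0.5. Only 50 to 100 probe sets were changed by each size there, while 52.9% were called in the data. The adjusted threshold was therefore stricter in the simulation, and its percentages do not give the power in the data. The alternatives were another pseudocount, filter, normalization, fit or probe set rule, the Gapdh ratio as a covariate, and arrays left out. Precision is limited by 5 arrays a group.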

Additional observations from a re-analysis of the deposited data

Results flagged for a closer look

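Replicate 3 of the mice castrated for 14 days had a Sparc signal of 1302.7, below the next lowest of that group (1645), which on the log2 scale was a wider gap than Dixon's 95% critical value allows for 5 arrays. Of 40 combinations of probe set and group examined for the 9 genes this was the 1 flagged, and chance flags about 1 in 20. The array was not among those of high Gapdh ratio.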

How the results depend on the processing

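Each result was computed again in 32 settings, 20 of which left out 1 array, keeping the tested probe sets of the main analysis where arrays were left out. Of 70 tested changes of genes and family pairs, 43 kept direction and side of the threshold in every setting that gave a value. Another 22 kept their direction only, and 5 changed sign. The exact permutation tests of family pairs use within-array differences only. Another filter, options of the limma fit, the Gapdh covariate and centring therefore could not alter them. For pairs, stability in those settings was fixed in advance. With the filter on the mean signal Vcan was not tested, and with probe sets averaged the second Bgn probe set had no value of its own. Counts of the 9 genes called, Vcan included, stayed within 1.5 times for both castrated groups against sham and between them. With testosterone against 14 days the count of 8 was 5 without the 4 arrays of high Gapdh ratio, beside 44.8% of all probe sets called in the main fit. With testosterone against sham the count of 9 was 5 with no filter, with arrays centred on their medians and without those 4 arrays, and ranged from 4 to 9 when 1 array was left out. It was 4 without sham replicate 3 and 5 without sham replicate 5 or testosterone replicate 3. In the main fit, where all 9 were called, 53% of all probe sets were called in that comparison. The share of all probe sets called in the other settings was not computed, so their counts have no background beside them. Centring moved the median change of all probe sets by 0.17 in that comparison and by 0.20 with testosterone against 14 days. Family pairs past the threshold numbered 16, and 10 without the 4 arrays. Of the 6 calls lost, 4 were between testosterone and 14 days, where 3 against 3 arrays cannot pass. None of the 5 sign changes concerned a called value. Bgn at 14 days against sham was 0.0113 with quantile normalization, 0.0328 with array weights, 0.24 with probe sets averaged, 0.10 with the Gapdh ratio as a covariate, 0.19 without the 4 arrays, and -0.119 to 0.0686 when 1 array was left out, above 0 without sham replicate 1 or 2 or 14-day replicate 4 or 5. Fn1 with testosterone against 14 days was 0.0756 with arrays centred. With 1 array left out, Gpc3 at 14 days against 3 days ranged from -0.00031 to 0.0918 (below 0 without 3-day replicate 1), Vcan from -0.0806 to 0.283 (below 0 without 3-day replicate 4), and the difference of Sparc and Sparcl1 at 3 days against sham from -0.0995 to 0.205 (below 0 without sham replicate 5). Where a cause is not named, it was not tested. The labels give no replicate numbers and no pairing of mice between groups, so no paired analysis was made. Replicate numbers used here count the samples of a group in the order listed.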
